A study of Mus musculus with 4 samples.

Results

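The transcripts of 9 neutrophil granule genes were followed through every cell class of mouse nasal mucosa. The members were the rows of the deposited gene tables that carry the symbols Mpo, Elane, Prtn3, Ctsg and Ms4a3, taken as 5 primary granule genes, and Ltf, Camp, Ngp and Lcn2, taken as 4 secondary granule genes. All 9 were found, among 27998 genes listed. In these cells the names primary and secondary held in part. Camp and Ngp lay almost wholly in 1 neutrophil-like cluster, and Ltf lay mostly in epithelial and gland clusters. Lcn2 was divided between those and neutrophil-like cells, which held most of it only in the library Vehicle-OVA. With the libraries summed, most UMIs of Mpo, Elane and Ctsg lay in few cells, mainly of an unnamed cluster of dividing cells, and in 1 further cell. In Vehicle-OVA most of Mpo and Elane lay instead in neutrophil-like cells. These places depended on the clustering: at a finer one, another unnamed cluster, of 133 cells, held 78.8% of all Mpo UMIs. The same cluster held 37.9% of Camp and 29% of Ngp UMIs, so these 2 genes were then not confined to neutrophil-like clusters.

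Neutrophils form their granules in sequence while they mature in the bone marrow. Primary (azurophil) granules are filled first, at the promyelocyte stage, with myeloperoxidase and serine proteases, and secondary (specific) granules follow at the myelocyte and metamyelocyte stages with lactoferrin, cathelicidin and neutrophil gelatinase-associated lipocalin. Most of these genes are silenced again before the cell leaves the marrow, so that a mature neutrophil carries their proteins with little of the transcript. Secretory epithelia also make lactoferrin and lipocalin.

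The study's series asks what a ribavirin spray does in allergic rhinitis. CD45+ cells were isolated from nasal mucosa of 8-week-old C57BL/6 mice, and 1 library was made for each of 4 groups. The study's methods name females of the C57BL/6J substrain. Vehicle and Ribavirin received no ovalbumin, and Vehicle-OVA and Ribavirin-OVA combined the same treatments with ovalbumin (OVA), which in the study's rhinitis model is injected with alum and then given into the nose. With 1 library per group, and no statement of how many mice went into it, mouse, library and treatment cannot be told apart and no test was made. Intervals are exact 95% intervals that cover counting error only, since they hold neither the spread between mice nor that between libraries.

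The libraries kept 24200 cells (Vehicle), 17129 (Vehicle-OVA), 19541 (Ribavirin) and 8740 (Ribavirin-OVA). Deposited totals were 91742940 to 171873110 unique molecular identifiers (UMIs, counts of captured transcripts) per library. Pairs of libraries shared 57 to 174 cell barcodes, at most 0.909% of the smaller library. Clusters were rebuilt without the granule genes and named "-like" from marker genes. Of 41 clusters, 6 were neutrophil-like and 11 stayed unnamed. Vehicle-OVA stood apart, with 10663 neutrophil-like cells (62.3% of the library) against 17.6% to 23.9% in the other libraries, and 91.2% of the largest neutrophil-like cluster (cluster 0) came from it. Epithelial-like and olfactory neuron-like cells were present despite the CD45+ isolation, and epithelial-like cells made up 0.794% to 3.41% of a library.

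The members lie in the GRCm38 (mm10) genome as follows. Prtn3 (proteinase 3, chr10:79874476-79883174) and Elane (neutrophil elastase, chr10:79886247-79888215) are neighbours on the same strand, 3073 bases apart. Mpo (myeloperoxidase) lies at chr11:87793581-87804413, Ctsg (cathepsin G) at chr14:56099881-56102574 and Ms4a3, a membrane protein of granulocyte and monocyte precursors, at chr19:11629496-11640851. Of the secondary genes, Camp (cathelicidin, chr9:109847379-109849617), Ngp (neutrophilic granule protein, chr9:110419747-110423012) and Ltf (lactoferrin, chr9:111019271-111042767) lie within one stretch of chromosome 9, with 570130 bases between Camp and Ngp and 596259 between Ngp and Ltf. Lcn2 (lipocalin 2) lies at chr2:32384633-32388252. Mpo overlaps Gm11505 and Prtn3 overlaps Plppr3, so that reads at these positions may be shared.

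The 250 bases before each RefSeq start were searched on both strands for short words bound by factors of granulocyte development. The C/EBP word TTGCNNAA (TTNNGCAA on the other strand) stood in the windows of 3 members, all secondary (Ltf, Ngp and Lcn2), and in 9.56% of 32851 windows of the same length. The PU.1 word GAGGAA, read on the other strand as TTCCTC, stood in 6 of 9 windows against 23.3% of all, in those of Mpo, Elane, Prtn3, Ctsg, Ltf and Lcn2, and the MYB word AACNG in 8 of 9 against 74.2%. The window of Camp, also a secondary gene, held no C/EBP word. A match is a description of the letters and no binding was measured. Stretches before the gene start of 2 primary and 2 secondary genes show the difference in C/EBP words, with matches to the C/EBP and PU.1 words in capitals (RefSeq, GRCm38.p6, 5′ to 3′ on the gene's strand: Elane chr10:79886062-79886246, plus, Ctsg chr14:56102575-56102824, minus, Ltf chr9:111019042-111019270, plus, and Ngp chr9:110419558-110419746, plus).
Elane: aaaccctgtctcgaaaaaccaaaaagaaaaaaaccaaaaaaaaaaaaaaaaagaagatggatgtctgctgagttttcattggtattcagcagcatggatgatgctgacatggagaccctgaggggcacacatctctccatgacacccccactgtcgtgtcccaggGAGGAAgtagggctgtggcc
Ctsg: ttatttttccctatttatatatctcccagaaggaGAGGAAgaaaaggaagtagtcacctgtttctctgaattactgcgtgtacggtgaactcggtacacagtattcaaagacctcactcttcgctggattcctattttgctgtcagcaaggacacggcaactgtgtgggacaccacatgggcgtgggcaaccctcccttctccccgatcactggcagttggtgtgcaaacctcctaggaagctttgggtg
Ltf: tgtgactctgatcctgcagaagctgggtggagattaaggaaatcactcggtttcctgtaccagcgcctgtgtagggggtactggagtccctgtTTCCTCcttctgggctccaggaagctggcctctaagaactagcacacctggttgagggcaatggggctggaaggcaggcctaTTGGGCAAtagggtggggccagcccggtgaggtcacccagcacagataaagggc
Ngp: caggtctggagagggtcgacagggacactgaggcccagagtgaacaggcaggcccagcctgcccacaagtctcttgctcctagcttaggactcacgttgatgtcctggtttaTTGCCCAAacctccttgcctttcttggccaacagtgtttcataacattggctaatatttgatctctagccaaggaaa
The capitals in Elane and Ctsg are each 1 PU.1 word. Those in Ltf are 1 PU.1 word and then 1 C/EBP word, and those in Ngp are 1 C/EBP word. The Ngp window holds another C/EBP word, at base -11, past the end of the printed stretch.

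Over all kept cells, primary granule transcripts were rare in every library. Summed over the 5 genes they reached 10.8 counts per 1000000 UMIs (CPM, 95% interval 10.3 to 11.3) in Vehicle and 11.1 (10.4 to 11.8) in Vehicle-OVA. The ribavirin libraries had 26.1 CPM without OVA (25.3 to 26.9) and 24.4 CPM with it (23.4 to 25.5). Both ribavirin libraries were above both vehicle libraries, and the intervals of the vehicle libraries overlapped. Mpo, the peroxidase of primary granules, was at 1.00 (0.848 to 1.18), 0.707 (0.545 to 0.901), 3.61 (3.32 to 3.92) and 6.89 (6.34 to 7.48) CPM in the same order of libraries. Elane was at 1.45, 1.03, 5.50 and 2.23 CPM and Ctsg at 0.888, 0.272, 2.42 and 1.12 CPM, so that both of these serine proteases were highest in Ribavirin and lowest in Vehicle-OVA. The low place of Vehicle-OVA for Elane rested on 1 cell of Vehicle with 139 of that library's 215 UMIs, since without the top cell of each library Vehicle-OVA over Vehicle was 1.32-fold (0.927 to 1.87). Prtn3, the third of the proteases, was at 6.89, 7.61, 13.1 and 12.6 CPM. Ms4a3 did not follow them: it was lowest in Vehicle, at 0.552 CPM, and lay between 1.41 and 1.57 CPM in the other libraries, whose intervals overlapped.

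Secondary granule transcripts summed to 1181 CPM in Vehicle, 3687 in Vehicle-OVA, 3981 in Ribavirin and 4995 in Ribavirin-OVA. Vehicle was lowest for each of the 4 genes. Ltf, the iron-binding lactoferrin, was at 490, 1352, 2116 and 2746 CPM in the same order, and Camp, the precursor of an antimicrobial peptide, at 172, 211, 410 and 470 CPM. Both were higher in the ribavirin libraries than in either vehicle library. Ngp was at 181, 542, 431 and 791 CPM. Lcn2, which binds bacterial siderophores, was at 338, 1584, 1025 and 988 CPM and was the only member at its highest in Vehicle-OVA. These levels are CPM of a 3′ kit, so each gene was compared with itself and not with the other members.

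**Figure D1:**
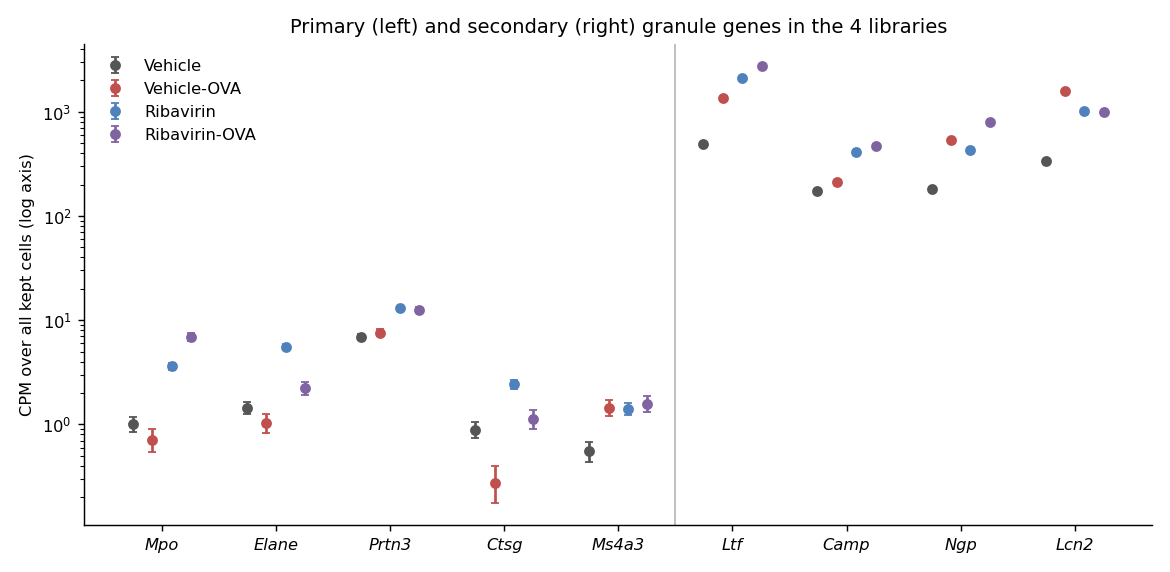
CPM over all kept cells of each granule gene (log axis), with 1 point per library and the exact 95% Poisson interval as a bar where it is wider than the point. Vehicle is the lowest point for Ms4a3 and for the 4 secondary genes, Ctsg spans 0.272 to 2.42 CPM, and Lcn2 is the only gene whose highest point is Vehicle-OVA.

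The cells that held these UMIs differed by gene. At resolution 1, Camp and Ngp were almost confined to cluster 21, a neutrophil-like cluster of 787 cells. It held 94.4% of all Camp UMIs and 92.9% of all Ngp UMIs. Camp and Ngp also lead this cluster, although neither was used to form it. Cluster 21 was singled out as the neutrophil-like cluster with the highest summed Camp and Ngp level. These shares are therefore given as a description. They also depended on the clustering. At resolution 2.0 an unnamed cluster of 133 cells held 37.9% of Camp and 29% of Ngp UMIs. Ltf lay elsewhere. Epithelial-like clusters and a cluster led by gland secretion genes (Scgb1b27, Scgb2b27) held 88.3% of its UMIs and cluster 21 held 8.51%. Lcn2 was divided, with 52.1% in epithelial-like and gland clusters, 17.7% in cluster 21 and 24.6% in the other neutrophil-like clusters with the libraries summed. Vehicle-OVA went the other way, with 26.1% of its Lcn2 UMIs in epithelial-like and gland clusters and 69.1% in neutrophil-like cells, against 52.0% to 69.7% and 25.6% to 36.5% in the other libraries. The level of Ltf over all cells thus came mainly from epithelial and gland cells. The share of epithelial-like cells moved with it in part, at 1.04% of cells in Vehicle, 0.794% in Vehicle-OVA, 3.01% in Ribavirin and 3.41% in Ribavirin-OVA. Their part in the result was not tested.

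The primary genes had other holders. Cluster 29, an unnamed cluster of 323 cells led by Prtn3, the dendritic cell gene Xcr1 and genes of cell division, held 69.0% of Mpo, 51.3% of Elane, 61.4% of Ctsg and 41.5% of Prtn3 UMIs with the libraries summed. Cluster 29 scored best as dendritic cell-like, with 6 detected markers, but stayed unnamed because a member led it. Its UMIs are therefore in no named class below. By library the share of Mpo in cluster 29 was 92.6% in Vehicle, 35.4% in Vehicle-OVA, 38.4% in Ribavirin and 96.2% in Ribavirin-OVA. In Vehicle-OVA cluster 21 held more, at 53.8% of Mpo and 58.9% of Elane, and 45.4% of the primary sum beside 13.9% in cluster 29. Cluster 17, unnamed and of shallow cells (median 1034.5 UMIs), held 15.1%, 21.8%, 26.3% and 6.26% of the same genes, and nearly all of that came from 1 cell described next. Ms4a3 differed from the other primary genes: cluster 21, the cluster of Camp and Ngp, held 55.7% of its UMIs and cluster 29 held 19.0%. Prtn3 was the most widespread, with 29.1% of its UMIs outside all of these clusters.

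**Figure D2:**
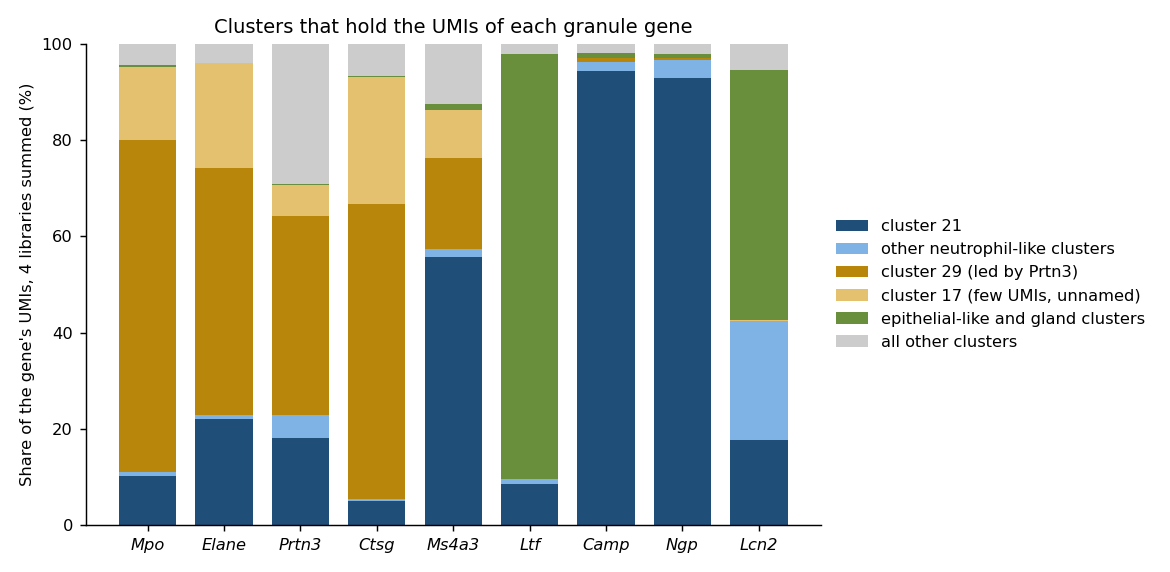
Stacked bars give the percentage of each gene's UMIs, over the 4 libraries summed, held by cluster 21, the other neutrophil-like clusters, cluster 29, cluster 17, the epithelial-like and gland clusters, and all other clusters. Camp and Ngp are almost all cluster 21 (94.4% and 92.9%), Ltf is mostly epithelial and gland (88.3%), and Mpo is mostly cluster 29 (69.0%).

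By class, the order of levels was clear for Camp and Ngp and not for the primary genes. Camp ran from 546 to 5200 CPM in neutrophil-like cells of the 4 libraries, and no other named class reached 80 CPM in any of them. The highest value outside was 79.2 CPM, in epithelial-like cells of Ribavirin. Ngp ran from 1402 to 8725 CPM in neutrophil-like cells and from 1.94 to 41.1 CPM in macrophage-like cells, the named class next in order. Ltf ran from 6098 to 16810 CPM in epithelial-like and from 557 to 3526 CPM in neutrophil-like cells, without overlap, while olfactory neuron-like cells (180 to 1454 CPM) overlapped the latter. Lcn2 was likewise higher in epithelial-like cells (4256 to 8458 CPM) than in neutrophil-like ones (1631 to 3428 CPM). Prtn3 was at 17.5 to 43.9 CPM in monocyte-like and 10.1 to 29.9 CPM in neutrophil-like cells, and these ranges overlapped. The ranges of Mpo (0.267 to 6.78 CPM in neutrophil-like and 0.294 to 0.887 CPM in monocyte-like cells) overlapped as well.

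Stray UMIs were counted in T cell-like cells, which do not make granule proteins, after each cell was thinned to 1000 UMIs. Camp was then seen in 2.54%, 1.82%, 5.40% and 11.3% of neutrophil-like cells, with the libraries in the order used above, and in 0.218%, 0.584%, 0.853% and 1.44% of T cell-like cells (3.39%, 3.47%, 7.73% and 15.8%, and 1.06%, 1.97%, 3.33% and 6.09%, without thinning). Median depths were 2083 to 2958.5 UMIs in neutrophil-like and 4123 to 5081 in T cell-like cells. Mpo was seen in 0.00986% to 0.0643% of neutrophil-like cells and in up to 0.0685% of T cell-like cells, so that a single Mpo UMI in a neutrophil-like cell was no more than background. Prtn3 stood above it, at 0.197% to 0.686% of neutrophil-like cells against at most 0.0544% of T cell-like cells.

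Primary transcripts were concentrated in very few cells. The 1347 Mpo UMIs of all libraries came from 94 cells, of which 3 held 50%, whereas the 147520 Camp UMIs came from 2997 cells, of which 84 held 50%. In Ribavirin-OVA, 1 cell of cluster 29 held 467 of 576 Mpo UMIs (81.1%). In Ribavirin, 1 cell placed in cluster 17 (29572 UMIs) held 994 primary UMIs, 24.7% of the library's total, with 203 of Mpo, 293 of Elane, 283 of Prtn3, 162 of Ctsg and 53 of Ms4a3. It had 0 UMIs of Camp and Ngp.

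The 12 cells with the most primary UMIs fell into clear kinds. In 8 of them, all in cluster 29, Camp and Ngp had 0 or 1 UMI each and the monocyte markers 242 to 353 UMIs. The neutrophil markers had 4 to 20 UMIs in 6 of these 8 cells and 642 and 1530 in the others. In 3 cells, all in cluster 21, the same primary genes stood beside 142 to 1256 Ngp and 599 to 1661 Camp UMIs and 4692 to 9923 neutrophil marker UMIs. The remaining cell is that of cluster 17, with 28 neutrophil and 145 monocyte marker UMIs. All 12 cells were deep, at 24888 to 48491 UMIs.

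The primary genes occurred together. Of 20 cells with at least 3 Mpo UMIs, all 20 had Elane and Prtn3, 19 had Ctsg and 16 had Ms4a3, but 7 had Camp and 6 had Ngp. Of 632 cells with at least 3 Camp UMIs, 97.9% had Ngp, 98.7% Lcn2 and 93.7% Ltf, and 11.9% had Ms4a3 and 2.37% Mpo. Prtn3 was found without the others: of 152 cells with at least 3 Prtn3 UMIs, 23.7% had Mpo.

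Cells were then sorted by content. With at least 3 primary UMIs or at least 10 secondary UMIs as limits, 119 cells were primary only, 65 held both and 5731 were secondary only. The primary-only cells made up 0.128% of Vehicle (31 cells, interval 0.0871% to 0.182%), 0.105% of Vehicle-OVA (18 cells), 0.220% of Ribavirin (43 cells) and 0.309% of Ribavirin-OVA (27 cells, 0.204% to 0.449%). Their cluster was seldom neutrophil-like (5 of 119 cells), whereas 41 of the 65 cells with both were in cluster 21. Marked doublets had been removed from these counts. Before removal they were 8 of 127 primary-only cells and 2 of 67 cells with both, beside 3.75% of all cells.

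Because Prtn3 alone and Ltf or Lcn2 alone brought in cells of other classes, the sorting was repeated, after these values had been seen, with Mpo, Elane, Ctsg and Ms4a3 (at least 3 UMIs in sum) against Camp and Ngp (at least 10). This left 35 cells with primary transcripts only, 25 of them in cluster 29, and 34 cells with both, 31 of them in cluster 21. No further cell with both had been marked as a doublet. Neutrophil-like clusters held 675 cells with Camp and Ngp only, 597 of them in cluster 21, and 20908 cells with neither. A further 102 cells had at least 3 Prtn3 UMIs without these 4 genes, of which 25 were in the unnamed cluster 3, led by Ly6i and Cxcl9, 24 in monocyte-like cluster 18 and 15 in the unnamed cluster 1, led by Siglecf. By library, in the order used above, the 35 cells were 6, 7, 10 and 12, the 34 were 7, 8, 12 and 7, and the 675 were 84, 153, 217 and 221. As shares of their libraries, the Camp and Ngp cells were 0.347% (0.277% to 0.430%), 0.893% (0.758% to 1.05%), 1.11% (0.969% to 1.27%) and 2.53% (2.21% to 2.88%). Vehicle was lowest and Ribavirin-OVA highest, and the intervals of both were clear of the others.

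**Figure D3:**
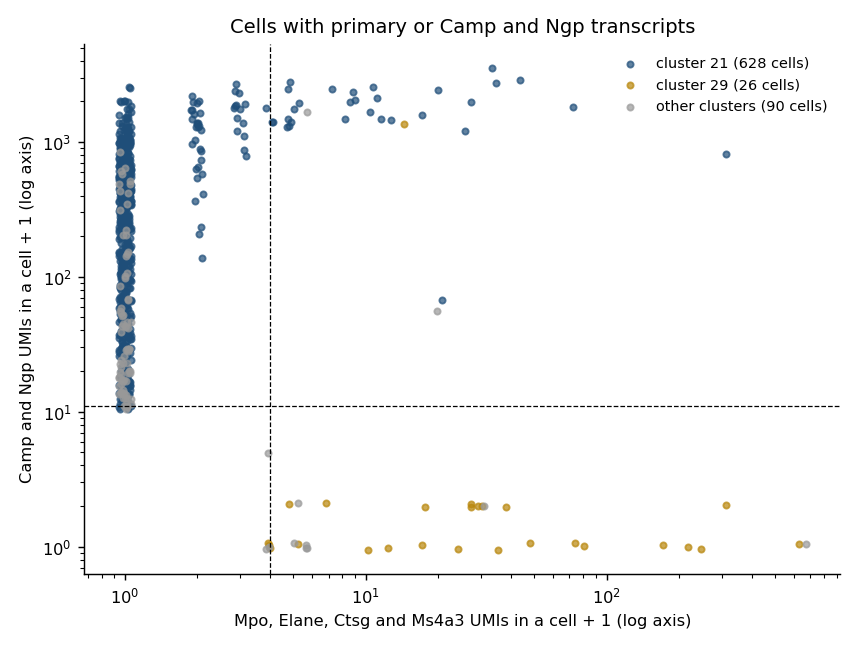
Each point is 1 cell of the 3 sets with granule transcripts, with the summed Mpo, Elane, Ctsg and Ms4a3 UMIs plus 1 on the x axis and the summed Camp and Ngp UMIs plus 1 on the y axis (both log, points shifted slightly at random), and dashed lines at 3 and 10 UMIs. The 35 cells with primary transcripts only lie at the bottom right and 25 of them belong to cluster 29, while 31 of the 34 cells at the top right and 597 of the 675 at the left belong to cluster 21.

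Other genes of neutrophil development were measured in these 4 sets. Their median depths were 22505, 24673, 7651 and 2598 UMIs per cell in the order primary only, both, Camp and Ngp only, and neither, and all values below are in this order, over the 4 libraries summed. Proliferation genes (7 genes, among them Mki67 and Top2a) summed to 1628, 2838, 544 and 24.4 CPM. Mki67 alone was at 459, 797, 152 and 13.8 CPM. In each library the sum was highest in the cells with both kinds of transcript (1927 to 4157 CPM) and lowest in the cells with neither (19.1 to 30.3 CPM). Myeloid progenitor markers were highest in the primary-only cells, at 377, 154, 65.0 and 40.6 CPM. Among them Myb, a factor of haematopoietic progenitors, was at 107, 47.8, 16.4 and 1.04 CPM.

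Genes of later granules were highest further along. Fcnb (ficolin B) was at 96.4, 1017, 106 and 0.195 CPM and Cebpe, the factor needed for secondary granules, at 27.9, 542, 209 and 4.95 CPM, both highest in the cells with both. Mmp9, the gelatinase of tertiary granules, was at 34.8, 33.8, 2303 and 969 CPM and Mmp8, the neutrophil collagenase, at 137, 2.33, 2848 and 346 CPM, both highest in the cells with Camp and Ngp only. The other secondary granule genes, 11 in all, summed to 8281, 21283, 19732 and 2622 CPM.

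Late maturation genes (10, among them Cxcr2, Csf3r and Il1b) were highest in neutrophil-like cells with neither kind of transcript, at 34242 CPM against 1938, 1365 and 6931 CPM in the other sets, and the 4 libraries lay at 29392 to 36730 CPM there, above all values of the other sets. Il1b was at 18177 CPM in these cells. Several genes of the list, Cxcr2 and Csf3r among them, are also markers that name neutrophil-like clusters. The cells with neither were taken only from such clusters, so part of their high value was fixed by that choice. The other primary granule genes did not behave like the 5 members: they summed to 3139, 2887, 3963 and 13515 CPM, and in the last set 11726 CPM of this was Srgn, the proteoglycan of many leukocyte granules. The cells with primary transcripts only also differed in lineage markers. Their neutrophil markers summed to 11093 CPM against 222660 to 265936 CPM in both sets with Camp and Ngp, and their monocyte markers to 6688 CPM against 1833 CPM in the cells with both. All 4 libraries kept this order for the monocyte markers, at 4476 to 7488 CPM in the first set and 1401 to 2270 CPM in the second. The set with Camp and Ngp only was limited to clusters named by the neutrophil markers, which fixed part of its value for them. The primary-only set and the set with both came from any cluster. Ly6g, a defining neutrophil marker, had 0 UMIs in the primary-only cells, which allows up to 3.48 CPM, beside 106 CPM in the cells with both. Ly6c2, of classical monocytes, was at 3028 CPM. Cluster 29, which held most of the primary-only cells, scored best as dendritic cell-like, with 6 detected markers of that class. Dendritic cell markers were not compared between these sets here.

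**Figure D4:**
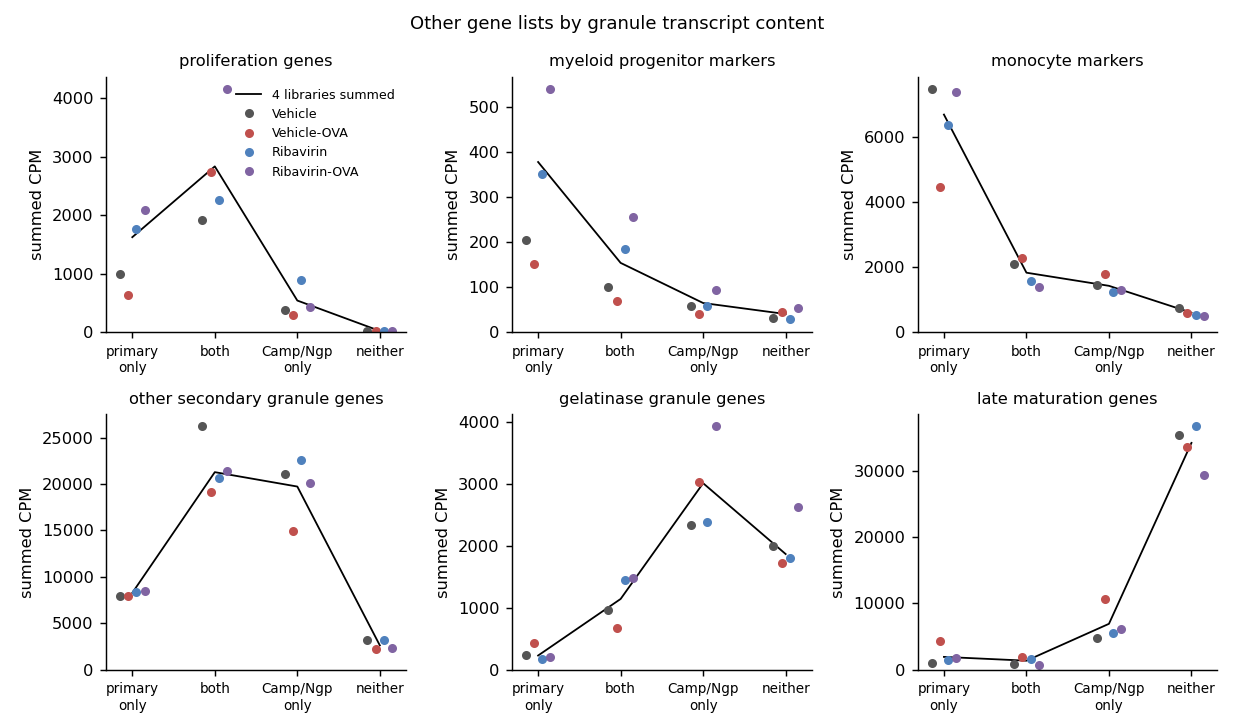
Summed CPM of 6 gene lists in cells with Mpo, Elane, Ctsg or Ms4a3 only, with both and, within neutrophil-like clusters, with Camp and Ngp only and with neither. Points are the 4 libraries and the line joins the values of all libraries summed. Proliferation genes peak in the cells with both (2838 CPM), monocyte markers are highest in the primary-only cells (6688 CPM), and late maturation genes in the cells with neither (34242 CPM).

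Across the 40 clusters of at least 50 cells, the genes whose log2(CPM + 1) followed the primary sum most closely, out of 14634 genes, were Fcnb (Pearson r = 0.76), Cebpe (0.75), Chil3 (0.71), Clec4a2 (0.70) and Gpr141 (0.65). Those closest to the secondary sum were Orm1 (0.88), Chil1 (0.84), Mapk13 (0.83), Prom1 (0.82) and Qsox1 (0.81). Taken singly, Camp and Ngp were closest to Fcnb (0.88) and Itgb2l (0.88), and Ltf and Lcn2 to Prom1 (0.86) and Chil1 (0.91). Among the members, Camp and Ngp followed each other (0.95), as did Mpo and Elane (0.98), while Camp and Ltf did so less (0.39). Ms4a3 was close to Elane (0.93) and to Camp (0.80). These are descriptions across clusters that share libraries and differ in depth.

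Vehicle-OVA over Vehicle compares allergen with none, and allergen and all else that differs between these libraries cannot be told apart. Over all kept cells, 3 of 4 secondary genes were at least 2-fold higher (Lcn2 4.69-fold, interval 4.64 to 4.74, Ngp 2.99-fold and Ltf 2.76-fold) against 12.8% of all genes with at least 50 UMIs. Camp was 1.22-fold higher (1.20 to 1.24). Of 5 primary genes, Ms4a3 was higher (2.62-fold, 1.98 to 3.49) and Ctsg lower (0.306-fold, 0.191 to 0.472) by that measure, against 10.5% of all genes on the lower side. The primary sum was 1.03-fold, with an interval that includes 1 (0.948 to 1.11).

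With ribavirin in both libraries, Ribavirin-OVA over Ribavirin, no member was at least 2-fold higher, against 12.2% of genes, and the median of all genes was itself higher by 0.43 on the log2 scale. Elane (0.405-fold, 0.343 to 0.475) and Ctsg (0.465-fold, 0.367 to 0.585) were at least 2-fold lower, against 2.88% of genes. Ngp was 1.83-fold, Ltf 1.30-fold, Camp 1.15-fold and Lcn2 0.964-fold. Mpo was 1.91-fold higher (1.70 to 2.15), and 0.568-fold once the top cell of each library was left out, so that its direction turned. The primary sum went from 0.937-fold to 0.699-fold by the same step.

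Ribavirin over Vehicle gave the broadest difference. All 4 secondary genes (Ltf 4.32-fold, Lcn2 3.03-fold, Ngp 2.38-fold and Camp 2.38-fold) and 4 of 5 primary genes (Elane 3.80-fold, Mpo 3.60-fold, Ctsg 2.72-fold and Ms4a3 2.56-fold) were at least 2-fold higher, against 14.6% of all genes. Prtn3 was 1.91-fold higher (1.77 to 2.06), and no member was at least 2-fold lower, against 0.447% of genes. The primary sum was 2.42-fold higher, and 2.50-fold without the top cells, a step that moved Elane to 7.04-fold and Mpo to 4.55-fold. In Ribavirin-OVA over Vehicle-OVA, 3 of 5 primary genes (Mpo 9.76-fold, Ctsg 4.14-fold and Elane 2.16-fold) and 2 of 4 secondary genes (Camp 2.23-fold and Ltf 2.03-fold) were at least 2-fold higher, against 19.5% of genes and a median of all genes 0.45 higher on the log2 scale. Lcn2 was lower (0.624-fold, 0.618 to 0.629), and no member was at least 2-fold lower, against 3.94% of genes. Without the top cells the primary sum was 1.47-fold, from 2.21-fold, Mpo was 2.67-fold and Elane, at 1.72-fold, was no longer past 2-fold. The comparisons share libraries, so they are not independent of each other.

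Within neutrophil-like cells the picture of the secondary genes changed. Vehicle-OVA over Vehicle was 0.245-fold for Camp (0.24 to 0.25), 0.599-fold for Ngp, 0.903-fold for Ltf and 1.79-fold for Lcn2, so that 1 of 4 was at least 2-fold lower, against 21.6% of genes, and none higher, against 7.99%. Ribavirin-OVA over Ribavirin was 1.36-fold for Camp, 2.15-fold for Ngp, 2.85-fold for Ltf and 1.32-fold for Lcn2, with 2 of 4 at least 2-fold higher against 19.6% of genes. Ribavirin over Vehicle was 1.72-fold for Camp, 1.74-fold for Ngp, 2.01-fold for Ltf and 1.59-fold for Lcn2, with 1 of 4 at least 2-fold higher against 2.26% of genes and none lower against 1.08%. Ribavirin-OVA over Vehicle-OVA was 9.52-fold for Camp, 6.22-fold for Ngp and 6.33-fold for Ltf, and 1.18-fold for Lcn2, with 3 of 4 at least 2-fold higher against 32% of genes and none lower against 3.24%. The medians of all genes in these 4 comparisons were -0.41, 0.52, -0.23 and 0.73 on the log2 scale. Different clusters held most of the class: cluster 0 held 54.4% of it in Vehicle-OVA, cluster 2 held 56.1% in Vehicle and 58.7% in Ribavirin, and cluster 5 held 39.2% in Ribavirin-OVA.

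The share of cluster 21, singled out for its Camp and Ngp level, among neutrophil-like cells moved with these values. It was 2.80% (119 cells, interval 2.32% to 3.34%) in Vehicle, 1.18% (126 cells, 0.985% to 1.41%) in Vehicle-OVA, 5.57% (260 cells, 4.93% to 6.27%) in Ribavirin and 13.9% (282 cells, 12.4% to 15.5%) in Ribavirin-OVA. Within cluster 21 the secondary sum was 75724, 66891, 75157 and 65808 CPM in that order, the lower values being those of the OVA libraries. Ngp lay between 28262 and 30451 CPM there. Camp was lower with OVA in both pairs, at 0.464-fold (0.456 to 0.474) and 0.634-fold (0.626 to 0.642), and Ltf was higher in both, at 1.55-fold and 1.38-fold.

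In neutrophil-like cells outside cluster 21, Lcn2 carried the difference. It was at 662 CPM in Vehicle, 2488 in Vehicle-OVA, 1017 in Ribavirin and 831 in Ribavirin-OVA, which is 3.76-fold (3.67 to 3.85) for the vehicle pair. For the ribavirin pair it was 0.817-fold (0.789 to 0.846). In cluster 21 the same comparisons gave 0.998-fold and 0.769-fold. Clusters 0 and 10, of which 91.2% and 84.3% of cells came from Vehicle-OVA, had Lcn2 at 3373 and 2011 CPM, beside 718 and 404 CPM in clusters 2 and 5. By library, cluster 0 was at 517 CPM in Vehicle, 3446 in Vehicle-OVA, 4150 in Ribavirin and 2433 in Ribavirin-OVA. Cluster 10 was at 2747, 2053, 1950 and 1359 CPM in the same order. From Vehicle to Vehicle-OVA, cluster 2 went from 695 to 815 CPM and cluster 5 from 404 to 492 CPM. Camp outside cluster 21 was at 87.0, 33.3, 44.9 and 29 CPM.

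**Figure D5:**
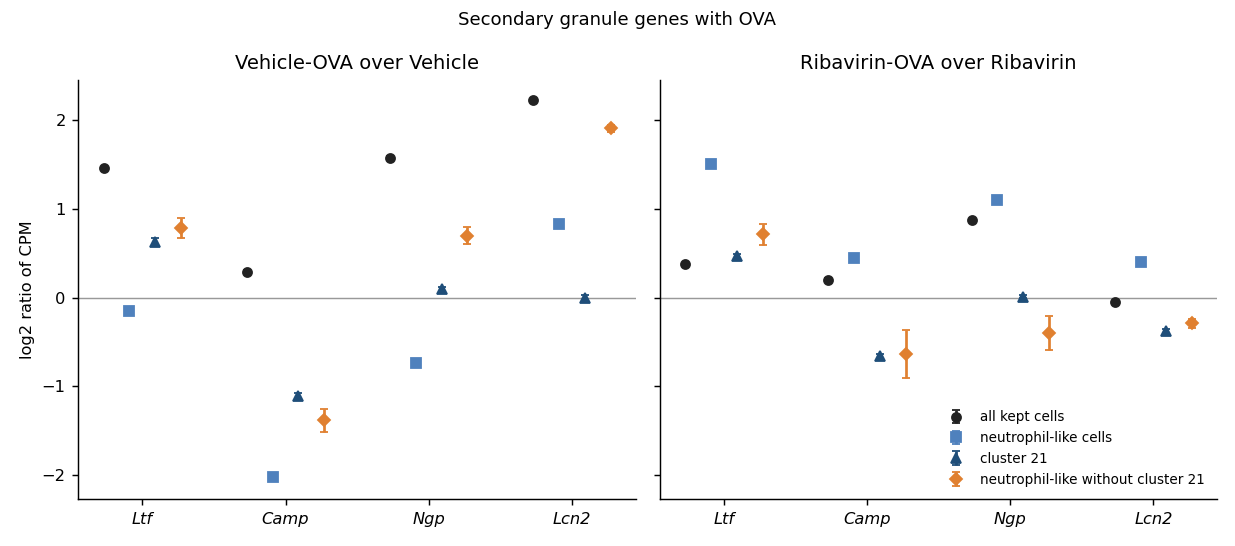
Log2 ratio of CPM with OVA over without, under vehicle (left) and under ribavirin (right), for the 4 secondary genes in all kept cells, neutrophil-like cells, cluster 21 and neutrophil-like cells without cluster 21, with exact 95% intervals for counting error where wider than the symbol. Under vehicle, Camp lies at 0.29 over all cells, -2.03 in neutrophil-like cells and -1.11 in cluster 21, and Lcn2 lies above 0 in all sets but cluster 21 (0.998-fold).

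The primary genes within neutrophil-like cells rested on few UMIs, 3 for Mpo in Vehicle and 3 in Ribavirin-OVA, beside 37 in Vehicle-OVA and 106 in Ribavirin. Of the members with at least 50 UMIs, Mpo (0.0601-fold, 0.0122 to 0.18) and Elane (0.18-fold, 0.103 to 0.296) were at least 2-fold lower in Ribavirin-OVA than in Ribavirin, against 2.4% of genes. In Ribavirin over Vehicle, Mpo, Elane and Prtn3 were at least 2-fold higher, against 2.26% of genes, with Prtn3 at 2.01-fold (1.68 to 2.42) from 467 and 167 UMIs. Much of the Ribavirin counts came from 1 cell of cluster 21, which held 97 of 106 Mpo, 167 of 200 Elane and 218 of 467 Prtn3 UMIs. Without the top cell of each library, Ribavirin-OVA over Ribavirin was 0.474-fold for Mpo (0.0498 to 2.29) and 0.323-fold for Elane (0.0985 to 0.833). Ribavirin over Vehicle was then 6.47-fold for Mpo from 9 and 1 UMIs (0.897 to 284), 1.83-fold for Elane (0.936 to 3.78) and 1.77-fold for Prtn3 (1.40 to 2.26). At clustering resolution 2.0 the direction turned for Mpo in the first comparison (log2 ratio 0.025) and for Elane (-2.50) and Prtn3 (-0.15) in the second. Ms4a3 was at 4.45, 2.69, 6.72 and 10.2 CPM, and 3.79-fold higher (2.76 to 5.19) in Ribavirin-OVA than in Vehicle-OVA, a direction that turned at resolution 2.0 (log2 ratio -0.35).

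All 7 proliferation genes were at least 2-fold higher in neutrophil-like cells of Ribavirin-OVA than of Vehicle-OVA, against 32% of genes (median log2 ratio 2.36, against 0.73 for all genes), and 5 of 7 in Ribavirin over Vehicle, against 2.26% (1.23 against -0.23). Cluster 21 had them at 833 CPM in sum, beside 10.3 to 37.2 CPM in the other neutrophil-like clusters. Its share of the class was 13.9% in Ribavirin-OVA, 1.18% in Vehicle-OVA, 5.57% in Ribavirin and 2.80% in Vehicle. The part of this makeup in the difference was not tested. Top2a was at 14.0, 11.4, 36.3 and 68.6 CPM, with the libraries in the order used above. Of 10 measured other secondary granule genes, 7 were at least 2-fold higher in Ribavirin-OVA than in Vehicle-OVA, against 32% of genes (median 1.30). In Vehicle-OVA over Vehicle 3 were at least 2-fold lower, near the 21.6% of all genes (median -0.29 against -0.41). Mmp8 was at 370, 487, 497 and 1316 CPM. Late maturation genes had medians of -0.22, -0.10, -0.07 and 0.15 over the 4 comparisons, beside -0.41, 0.52, -0.23 and 0.73 for all genes. At most 2 of 10 passed 2-fold in either direction. In Ribavirin-OVA over Vehicle-OVA 2 were lower, against 3.24% of genes, and 1 was higher, against 32%. In Vehicle-OVA over Vehicle 1 was lower, against 21.6%, and 1 higher, against 7.99%. In Ribavirin-OVA over Ribavirin 1 was lower, against 2.4%, and none higher, against 19.6%.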

How the data were processed

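CD45+ cells of nasal mucosa were profiled with 10x Genomics 3′ v3.1 chemistry, in 1 library for each of the 4 groups that the labels name. The GEO labels name magnetic sorting and the series' design text names fluorescence-activated sorting, so the isolation is given here only as CD45+. Per the submitters' processing notes, the authors made the deposited UMI counts with Cell Ranger 5.0.0 on mm10. These raw counts per gene and cell were used as deposited, and no other file was used.

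Cells with at least 500 UMIs, at least 200 genes and under 10% mitochondrial UMIs were kept, and doublets marked by a Scrublet-type score at an expected rate of 0.4% per 1000 barcodes were removed. For Vehicle-OVA, where the automatic cutoff marked under 0.5% of cells, the mean cutoff of the other libraries was used and marked 2.11%. Counts were log-normalised, 2000 variable genes without the members and other granule genes (38 genes left out) gave 30 principal components, and Leiden clustering (leidenalg 0.10.2, 15 neighbours, resolution 1) gave 41 clusters. Genes that move with the members remained among the variable genes. A cluster was named from at least 3 detected markers, by a scoring rule set after the clusters were seen. The names are rebuilt, not the study's. Outside the neutrophil and progenitor classes, a cluster stayed unnamed with a member and at most 1 marker of its class among its leading genes. This applied to cluster 29, which scored best as dendritic cell-like with 6 detected markers. Its UMIs thus enter no named class. Levels are counts per 1000000 UMIs (CPM), from UMIs summed over cells, with exact Poisson intervals, ratios have exact conditional binomial intervals, and shares have Clopper-Pearson intervals, all at 95% (scipy 1.17.1). Intervals and limits cover counting error only. A count of 0 allows up to 3 counts. A gene counts as 2-fold different when its CPM ratio passes 2, among genes with at least 50 UMIs in the libraries compared. Interval coverage and the gene likeness step were tested on simulated data.

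The members and lists were chosen with earlier results of these data known. Named are all members, up to 4 genes of each list with the most UMIs in neutrophil-like cells, and the 5 genes closest in pattern to each sum. Myb, Ly6g, Ly6c2, Cxcr2 and Csf3r, and the patterns closest to single members, were named after their values were seen. Members with other genes at their position, Mpo and Prtn3, may share reads. Promoter windows are those of RefSeq (GRCm38.p6) and were cut where the annotated gene begins. Alternatives were other filters, clusterings, classes and stage limits, given in the closing section.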

Additional observations from a re-analysis of the deposited data

Results flagged for a closer look

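In 8 measurements the OVA library lay on opposite sides of its control under vehicle and under ribavirin. Each effect compares 1 library with 1 library, and the difference between the 2 effects was not tested. Values are log2 ratios of CPM, first Vehicle-OVA over Vehicle and then Ribavirin-OVA over Ribavirin. Over all kept cells, Mpo was at -0.50 and 0.93 and Lcn2 at 2.23 and -0.053. The second Mpo value comes from a library in which 1 cell holds 467 of 576 Mpo UMIs, and without the top cell of each library the folds were 0.970 and 0.568, both below 1.

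Within neutrophil-like cells, the secondary sum was at -0.33 and 0.83, Ltf at -0.15 and 1.51, Camp at -2.03 and 0.44, and Ngp at -0.74 and 1.10. The vehicle value of the secondary sum changed side under 2 alternatives, to 0.39 with classes from single-cell marker UMIs and to 0.35 with cluster 1 added, and both pairs then lay on the same side. The share of cluster 21 among these cells was 2.80% and 1.18% in the vehicle pair and 5.57% and 13.9% in the ribavirin pair. Its part in these values was not tested, and within cluster 21 Ngp was 1.07-fold and 1.01-fold. Of the primary genes, Ms4a3 was at -0.72 and 0.60. Mpo was at 2.00 and -4.06, from 37 against 3 UMIs (4.01-fold, interval 1.27 to 20.3) and from 3 against 106 UMIs (0.0601-fold, interval 0.0122 to 0.18). In Vehicle-OVA 1 cell held 20 of the 37 UMIs and in Ribavirin 1 cell held 97 of the 106. Without the top cell of each library Mpo was at 2.47 from 17 against 1 UMIs (fold interval 0.866 to 231) and at -1.08 from 2 against 9 UMIs (0.0498 to 2.29), and both intervals include 1.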

How the results depend on the processing

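No paired analysis was possible because each group has 1 library and the labels give no replicate numbers. Values below are log2 ratios. V, VO, R and RO stand for Vehicle, Vehicle-OVA, Ribavirin and Ribavirin-OVA, and a slash means over.

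Over all kept cells, with a limit of 5% mitochondrial UMIs the primary sum was -0.92 for RO/R and 0.33 for RO/VO, and the secondary sum 1.75 for VO/V, 0.42 for RO/R and 0.42 for RO/VO. With a limit of 20% the primary sum was -0.20 for RO/R and the secondary sum 1.58, 0.33, 1.70 and 0.45 for VO/V, RO/R, R/V and RO/VO. With every deposited barcode the primary sum was -0.18 for RO/R and the secondary sum 0.37 for RO/R and 0.47 for RO/VO. With marked doublets kept the secondary sum was 1.74, 0.38, 1.81 and 0.45. The mean of single-cell CPM gave -0.30 for VO/V and 0.91 for R/V for the primary sum and 1.83, 0.66, 1.38 and 0.21 for the secondary sum. Leaving out the top cell of each library, an alternative chosen after seeing the data, gave the primary sum 0.25 for VO/V, -0.52 for RO/R and 0.55 for RO/VO.

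Within neutrophil-like cells, the secondary sum for VO/V, RO/R, R/V and RO/VO was -0.36, 0.88, 0.77 and 2.01 at resolution 0.5, and -0.047, 1.27, 0.43 and 1.75 at resolution 2.0. At resolution 2.0 the cells with most primary UMIs formed an unnamed cluster of 133 cells outside the class, led by Mpo, which by construction lowered the primary counts. This cluster also held 37.9% of Camp and 29% of Ngp UMIs, which were thus outside the class too. Within the class at resolution 2.0 the primary sum was -1.72 for VO/V, -0.46 for R/V, which turned its direction, and 0.46 for RO/VO. Elane R/V (-2.50), Prtn3 R/V (-0.15), Mpo RO/R (0.025) and Ms4a3 RO/VO (-0.35) turned as well. With granule genes kept in the clustering the secondary sum was -0.36 for VO/V, 0.82 for RO/R and 1.97 for RO/VO. With classes from single-cell marker UMIs the primary sum was -0.24 for VO/V, -1.39 for RO/R and 2.10 for R/V, and the secondary sum 0.39 for VO/V, a change of side whose cause was not tested, 0.85 for R/V and 1.29 for RO/VO. With a limit of 5% mitochondrial UMIs the secondary sum was -0.42, 0.86, 0.75 and 2.03, and with at least 1000 UMIs and 500 genes it was 0.85 for RO/R and 0.76 for R/V. With the unnamed cluster 1 added, chosen after seeing the data, it was 0.35, 1.01, 1.03 and 1.69, again with VO/V on the other side. Without the top cell of each library, chosen after seeing the data, the primary sum was -0.21 for RO/R and 0.61 for R/V and the secondary sum -0.31 for VO/V and 0.81 for R/V. No value could be had for Ctsg over Vehicle there, which was left with 0 UMIs.

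Shares of primary-positive cells in V, VO, R and RO were 0.413%, 0.485%, 0.696% and 0.767% at 2 primary UMIs, 0.0620%, 0.105%, 0.169% and 0.252% at 5, 0.0212%, 0.0495%, 0.0716% and 0.134% in cells thinned to 1000 UMIs and 0.0537%, 0.0876%, 0.113% and 0.217% without Prtn3. Shares of secondary-positive cells were 4.27%, 29.2%, 10.2% and 13.8% at 5 secondary UMIs, 1.19%, 5.57%, 3.98% and 5.74% at 30, 1.76%, 12.6%, 4.69% and 6.50% thinned and 0.401%, 0.957%, 1.25% and 2.68% with Camp and Ngp only. The last sets for each, and the grouping of cells by 4 primary genes against Camp and Ngp, were chosen after seeing the data.

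Depth limits the primary genes most: the smallest library total for a member was 25 UMIs (Ctsg in Vehicle-OVA), and 1 cell decided the Mpo value of Ribavirin-OVA over all cells and another that of Ribavirin within neutrophil-like cells. With 1 library per group, no value can be separated from the library it comes from.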

Other observations

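At resolution 2.0 the unnamed cluster of 133 cells held 63.7% of all primary UMIs and 78.8% of Mpo, with 37.9% of Camp and 29% of Ngp, and its 10 leading genes were Mpo, Elane, Prtn3, Fcnb, Camp, Ctsg, Ms4a3, Ngp, Cebpe and 1700020L24Rik. Vehicle and Vehicle-OVA gave 19 cells each, Ribavirin gave 60 and Ribavirin-OVA 35. Its cells were 29 with primary transcripts only, 39 with both, 50 with secondary transcripts only and 15 with neither, and their median depth was 18959 UMIs. Proliferation genes summed to 2975 CPM in it and neutrophil markers to 141447 CPM.

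Haemoglobin genes were among the closest in pattern to Ctsg across clusters: Hba-a2 (Pearson r = 0.63), Hba-a1 (0.62) and Hbb-bs (0.61), over 40 clusters that share libraries. Of 624 Ctsg UMIs, 164 lay in cluster 17, and 162 of these in 1 cell. The part of that cell in these values was not tested. Serpinb1a, an inhibitor of the primary granule proteases, was at 149 CPM in cells with Mpo, Elane, Ctsg or Ms4a3 only, 1139 CPM in cells with Camp and Ngp as well, 533 CPM in neutrophil-like cells with Camp and Ngp only and 7.43 CPM in those with neither. Secretory vesicle genes, 4 measured, had 3 at least 2-fold higher in neutrophil-like cells of Vehicle-OVA than of Vehicle, against 7.99% of genes (median log2 ratio 1.28, against -0.41 for all genes), and Cd14 was at 2202 CPM in Vehicle, 5758 in Vehicle-OVA, 3772 in Ribavirin and 1293 in Ribavirin-OVA. Serpinb1a, Cd14 and the haemoglobin genes were singled out after their values were seen.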
